A study of Homo sapiens with 36 samples.

Results

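The 51 genes described here encode the machinery that copies DNA and the regulators of the step from G1 into S phase. They were chosen by name, as the probe sets whose platform annotation gave a listed symbol. A gene with several probe sets was read from the one of highest mean over the arrays, and it was kept where that probe set lay above 4 on the log2 scale on 3 or more of the 36 arrays. All 51 of the 51 listed genes were kept, among 11092 genes in all. The filter and the choice of probe set used no difference between groups, but the list was drawn up with earlier results of these data known. Expression came from single-colour microarrays of HK-2 cells, a human cell line immortalized from the proximal tubule of the kidney. One set of 18 arrays held cells exposed to CdCl, to Di or to the vehicle for 12 h or 48 h. The other 18 arrays held cells exposed to Kbr at a low dose, to Kbr at a high dose or to the vehicle for 24 h or 48 h. The labels do not spell out the compound names and give no concentration. All cells, controls included, had been seeded 24 h before treatment and were near confluency when it began. The labels give 3 biological replicates for each of the 12 groups, and so few arrays limit the precision.

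Before S phase the origin recognition complex, CDC6 and CDT1 load the MCM2 to MCM7 helicase onto origins, a step called licensing that geminin (GMNN) blocks. Cyclin E with its kinase, together with the kinase CDC7, then turns the loaded helicase into a moving one by joining CDC45 and the GINS complex to it. Polymerases, a sliding clamp and its loader copy the strands, and most of these genes are targets of E2F transcription factors, which the retinoblastoma protein holds back in resting cells. HK-2 cells were made with papillomavirus oncogenes that act on p53 and the retinoblastoma protein, which limits them as a model of how healthy tubule cells control this step. In the adult kidney most proximal tubule cells are at rest and re-enter the cycle after injury.

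Over the kept probe sets, arrays within a group had r = 0.982 to 0.995 and arrays of different groups 0.891 to 0.993. Of the proximal tubule markers 6 of 17 were kept (SLC3A1, SLC4A4, DPP4, CDH6, CDH2 and PAX8), while LRP2, CUBN, AQP1 and SLC34A1 were among those at background. All 5 epithelial markers were kept, and none of the 4 endothelial or 4 leukocyte markers was. Of the 4 fibroblast markers COL1A1 and DCN were kept, and PDGFRA and COL3A1 were at background. The summed log2 level of COL1A1 and DCN was 18.5 to 18.7 in the 48 h controls of CdCl and Di, 16.9 to 17.6 with Di and 19.0 to 19.3 with CdCl. In the Kbr set it was 19.5 to 19.8 in the 48 h controls and 14.9 to 15.2 with high Kbr. As a sign of RNA quality, the 3' minus 5' difference of beta-actin had group means of 1.40 to 1.84 in the CdCl and Di set and of 0.87 to 1.06 in the Kbr set. The part of these values in the results was not tested. In bulk samples, fewer cycling cells and less of an RNA per cell cannot be told apart.

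Most of the 51 genes fell with CdCl at both times and with Di at 48 h. With Kbr some rose and some fell, as over all genes. In limma's test with Benjamini-Hochberg adjustment over all genes at 0.05, 40 genes fell and CDC6 rose with CdCl at 12 h, where 30.5% of all genes were called lower and 13.4% higher. At 48 h 38 genes fell and none rose with CdCl, where 22.0% of all genes were called lower and 20.7% higher. Di at 12 h lowered 3 genes, beside 4.60% of all genes called lower and 1.67% higher, so the share of the 51 was close to the background. At 48 h Di lowered 40 genes and raised 2, beside 23.9% of all genes called lower and 19.1% higher. The low dose of Kbr raised 2 genes and lowered 5 at 24 h, where 6.93% of all genes were called higher and 8.28% lower. At 48 h it raised 15 and lowered 7, beside 23.8% and 23.2%. The high dose raised 7 and lowered 16 at 24 h, beside 15.4% and 25.3%, and raised 16 and lowered 12 at 48 h, beside 27.3% and 34.5%. In each of the 4 Kbr comparisons the share of the 51 genes called in either direction was thus near or under that of all genes. Of the calls, 39 of 41 with CdCl at 12 h, 36 of 38 with CdCl at 48 h and 35 of 42 with Di at 48 h held in every other setting run, one array left out at a time included. None of the 3 with Di at 12 h did. For Kbr it was 1 of 7 and 10 of 22 with the low dose and 15 of 23 and 26 of 28 with the high dose, at 24 h and 48 h. Without the first 24 h control array the low dose called 4 genes at 24 h.

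The median difference of the 51 genes from control was -0.82 with CdCl at 12 h, where the median of all genes was -0.16. It was -1.04 with CdCl and -0.99 with Di at 48 h, where all genes had a median of -0.01 in both. After Di at 12 h it was -0.12, and in the Kbr comparisons it lay between -0.13 and 0.09. At 48 h 37 genes were lower with both CdCl and Di, which share their control arrays, and 35 of these were also lower with CdCl at 12 h. The same joint counts over all genes were not made. Centring each array on its median turned the split of high Kbr at 24 h into 11 higher and 13 lower. For CdCl at 12 h that centring changed the split of all genes from 1484 higher and 3386 lower to 1780 and 2522, and left 40 of the 51 genes lower. It also moved the split of all genes from 185 higher and 510 lower to 226 and 277 for Di at 12 h, and from 1711 and 2806 to 2220 and 2280 for high Kbr at 24 h.

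**Figure D1:**
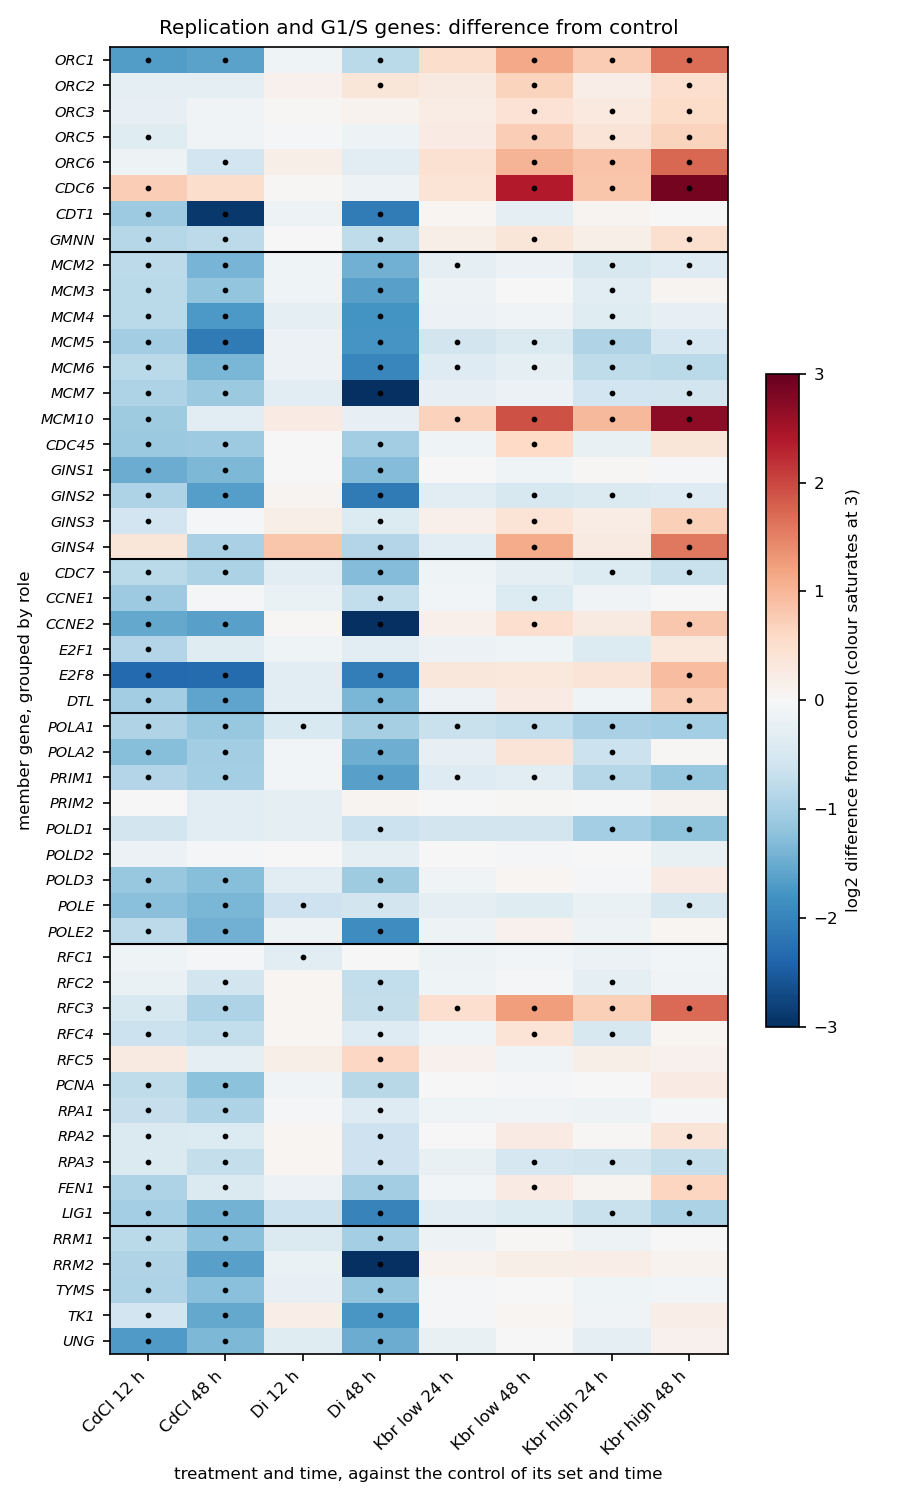
Log2 difference of each of the 51 genes (rows, grouped by role) from the control of its set and time, in 8 comparisons (columns); colour runs from lower to higher and saturates at 3, and a dot marks a gene that passed limma's test. The columns of CdCl at both times and of Di at 48 h are mostly of one direction, with medians of -0.82, -1.04 and -0.99. At the high dose of Kbr and 48 h 16 genes were called higher and 12 lower, beside 27.3% and 34.5% of all genes.

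As most of these genes fell with CdCl and Di, promoters are shown for some of the genes that the results turn on. Some hold the letters searched and some do not. RefSeq sequence (build GRCh38.p14) of 250 bases before to 50 bases after a gene's start was at hand for 43 of the 51 genes. The members without an entry were MCM4, MCM5, GINS4, POLD3, RPA2, RPA3, CCNE2 and E2F8. The letters searched, on both strands, were the E2F-type sites TTTGGCGC, TTTCCCGC, TTTCGCGC and TTTGCCGC, matches of which may overlap each other. At least 1 of them stood in the window of 23 of the 43 genes (53.5%), against 1090 of 27305 genes of the table (3.99%). Counted by window, a match was in 23 of 55 windows of these genes (41.8%) and in 1164 of 35116 windows in all (3.31%).

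The 150 bases before a start are printed 5' to 3' on the gene's strand, with the matched sites in capitals. CDC7, GMNN, MCM7 and RRM2 also had windows at other starts, which are not printed and held no match. RFC3, chr13:33817999-33818148 (plus strand), GMNN, chr6:24775263-24775412 (plus strand), and DTL, chr1:212035598-212035747 (plus strand), were higher with high Kbr and lower with CdCl and Di at 48 h.
RFC3: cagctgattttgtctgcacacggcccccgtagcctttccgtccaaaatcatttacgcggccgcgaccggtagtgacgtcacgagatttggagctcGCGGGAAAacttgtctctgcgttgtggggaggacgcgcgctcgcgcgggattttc
GMNN: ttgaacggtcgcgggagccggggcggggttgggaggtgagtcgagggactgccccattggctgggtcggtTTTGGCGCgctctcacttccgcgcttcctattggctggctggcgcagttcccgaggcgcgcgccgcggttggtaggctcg
DTL: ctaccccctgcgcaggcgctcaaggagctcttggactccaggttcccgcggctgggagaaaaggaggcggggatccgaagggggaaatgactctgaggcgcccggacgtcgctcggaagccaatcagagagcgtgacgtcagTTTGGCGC
MCM6, chr2:135876444-135876593 (minus strand), CDC7, chr1:91500962-91501111 (plus strand), POLA1, chrX:24693768-24693917 (plus strand), and LIG1, chr19:48170345-48170494 (minus strand), were lower with all 3 compounds at 48 h.
MCM6: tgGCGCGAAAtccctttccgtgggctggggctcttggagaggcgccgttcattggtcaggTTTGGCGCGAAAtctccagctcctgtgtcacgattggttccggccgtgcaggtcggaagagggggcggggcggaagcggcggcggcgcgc
CDC7: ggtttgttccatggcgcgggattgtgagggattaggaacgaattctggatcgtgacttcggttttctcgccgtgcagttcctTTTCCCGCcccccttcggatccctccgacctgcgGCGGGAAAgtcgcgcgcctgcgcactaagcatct
POLA1: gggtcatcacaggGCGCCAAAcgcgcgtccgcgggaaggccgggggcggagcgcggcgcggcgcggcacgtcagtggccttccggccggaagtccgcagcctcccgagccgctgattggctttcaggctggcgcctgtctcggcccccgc
LIG1: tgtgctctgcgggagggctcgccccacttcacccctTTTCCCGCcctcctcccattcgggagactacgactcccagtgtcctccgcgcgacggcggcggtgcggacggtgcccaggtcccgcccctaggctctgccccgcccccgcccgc
CDT1, chr16:88803639-88803788 (plus strand), MCM7, chr7:100101398-100101547 (minus strand), POLE2, chr14:49688215-49688364 (minus strand), and RRM2, chr2:10122589-10122738 (plus strand), had the largest differences of their roles, as LIG1 did of its own.
CDT1: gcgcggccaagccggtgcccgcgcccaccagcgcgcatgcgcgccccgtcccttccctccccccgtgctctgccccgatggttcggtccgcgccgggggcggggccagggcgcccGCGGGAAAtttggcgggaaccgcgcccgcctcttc
MCM7: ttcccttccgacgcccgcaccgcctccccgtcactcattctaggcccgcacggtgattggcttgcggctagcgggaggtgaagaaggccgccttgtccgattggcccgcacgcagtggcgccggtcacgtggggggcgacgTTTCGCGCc
POLE2: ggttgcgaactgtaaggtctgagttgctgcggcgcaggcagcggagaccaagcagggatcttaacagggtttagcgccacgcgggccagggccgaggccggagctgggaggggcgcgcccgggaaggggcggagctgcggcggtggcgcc
RRM2: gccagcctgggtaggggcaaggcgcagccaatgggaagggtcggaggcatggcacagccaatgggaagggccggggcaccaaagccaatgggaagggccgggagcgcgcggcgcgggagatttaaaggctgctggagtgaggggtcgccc
CDC6, chr17:40287729-40287878 (plus strand), MCM10, chr10:13161408-13161557 (plus strand), and ORC1, chr1:52404424-52404573 (minus strand), were among the genes most raised by Kbr.
CDC6: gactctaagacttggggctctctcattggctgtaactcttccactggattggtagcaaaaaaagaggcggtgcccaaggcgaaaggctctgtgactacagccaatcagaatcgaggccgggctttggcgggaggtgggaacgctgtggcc
MCM10: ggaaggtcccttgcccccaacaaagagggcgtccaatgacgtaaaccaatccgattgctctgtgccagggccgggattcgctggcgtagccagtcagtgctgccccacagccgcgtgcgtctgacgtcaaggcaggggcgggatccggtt
ORC1: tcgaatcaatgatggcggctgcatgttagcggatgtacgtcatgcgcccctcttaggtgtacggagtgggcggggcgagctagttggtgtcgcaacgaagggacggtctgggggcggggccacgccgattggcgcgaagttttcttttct
The stretches of POLE2, RRM2, CDC6, MCM10 and ORC1 hold no match. In POLE2 a match lay across the start and in CDC6 one lay after it, beyond the bases printed, while no window of RRM2, MCM10 or ORC1 held any. In MCM6 a forward and a reverse match overlap by 4 bases, which gives the run of 12 capitals. The letters stood both in genes that rose and in genes that fell with high Kbr. They were found for 6 of the 12 genes with an entry that rose with high Kbr at 48 h (50.0%), for 8 of 10 that fell (80.0%) and for 9 of 21 not called (42.9%). A match is a run of letters and does not show that a factor was bound there. Only the exact letters listed were searched, so a stretch with no match may still hold an E2F-type site of other letters.

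Among the 8 origin recognition and licensing genes, ORC1 and GMNN were higher with high Kbr and lower with both CdCl and Di at 48 h. CDT1, which brings the helicase to origins and is normally destroyed once S phase begins, had the largest difference of this role. Its log2 levels were 8.66, 8.64 and 8.59 in the 48 h controls of the set, 6.14, 5.39 and 5.67 with CdCl and 6.62, 6.62 and 6.38 with Di. The arrays did not overlap, and CDT1 was 7.45-fold lower with CdCl (log2 difference -2.90 ± 0.13 SE, limma adjusted p = 5.23e-16) and 4.26-fold lower with Di (-2.09 ± 0.13). Already at 12 h CdCl held it at 8.13, 8.14 and 8.43 against 9.33, 9.33 and 9.28 in the controls (-1.08 ± 0.13). CDT1 stayed between 8.87 and 9.42 on all 18 arrays of the Kbr set, and no comparison with control called it. With high Kbr at 48 h its difference was -0.02 ± 0.13.

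CDC6, the loader that joins the origin recognition complex, went the other way. It read 7.74, 8.12 and 8.45 in the 48 h controls of Kbr, 10.94, 10.62 and 9.85 with the low dose and 11.36, 11.27 and 10.33 with the high dose. No treated array came near the controls, and the rise was 5.16-fold with the low dose (2.37 ± 0.22) and 7.37-fold with the high dose (2.88 ± 0.22, limma adjusted p = 8.36e-12). At 24 h the high dose raised it by 0.82 ± 0.22. CDC6 was also the one gene of the 51 that rose with CdCl at 12 h, from 9.28, 9.25 and 9.19 to 9.87, 9.95 and 10.13 (0.75 ± 0.22, adjusted p = 0.00699). At 48 h with CdCl its difference of 0.53 missed the threshold (adjusted p = 0.0515), and with Di it was -0.16.

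The large subunit ORC1 and the small subunit ORC6 belong to the origin recognition complex. ORC1 read 6.67, 6.99 and 7.59 in the 48 h controls of Kbr, 7.67, 8.32 and 8.68 with the low dose and 8.51, 8.77 and 8.99 with the high dose. It rose 2.20-fold and 3.20-fold (1.14 and 1.68, SE 0.28 each). In the other set ORC1 was at 4.37, 5.22 and 4.35 in the 48 h controls, 3.06, 2.62 and 3.43 with CdCl and 4.19, 3.02 and 4.33 with Di. Both treated means were under the floor of 4, so it was at least 1.56-fold lower with each. The Di call for ORC1 was lost without Di replicate 2 (adjusted p = 0.28) and without control replicate 2 (0.187).

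ORC6 read 9.18, 9.33 and 9.44 in the 48 h controls, 10.20, 10.26 and 10.53 with low Kbr and 11.08, 11.11 and 10.97 with high Kbr. These 3 ranges did not overlap, and the rises were 2.02-fold and 3.32-fold (1.01 and 1.73, SE 0.21). With CdCl at 48 h ORC6 was at 8.56, 7.55 and 8.44 against 8.73, 9.09 and 8.46, and its fall of 0.58 ended without CdCl replicate 2 (adjusted p = 0.308) or without control replicate 1 or 2 (0.0507 and 0.157). GMNN, the inhibitor of licensing, read 10.67, 10.62 and 10.60 in the Kbr controls at 48 h and 11.13, 11.15 and 11.08 with the high dose, a 1.40-fold rise (0.49 ± 0.07). The low dose gave 10.82, 11.03 and 11.12 (0.36 ± 0.07). At 24 h the high dose raised GMNN only with the replicate number as a block (0.17, adjusted p = 0.047). In the CdCl and Di set GMNN fell from 9.91, 9.87 and 9.84 to 9.03, 9.07 and 9.18 with CdCl (-0.78 ± 0.07) and to 9.09, 9.08 and 9.15 with Di (-0.77 ± 0.07). GMNN was thus lower with CdCl and Di and higher with Kbr, as ORC1 was.

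ORC2, ORC3 and ORC5 are the core subunits of the complex. ORC5 read 9.26, 9.36 and 9.32 in the 48 h Kbr controls, 10.21, 10.17 and 9.76 with the low dose and 10.05, 10.14 and 9.78 with the high dose, rises of 0.74 and 0.68 (SE 0.10). ORC3 read 9.90, 10.30 and 10.15, then 10.32, 10.70 and 10.61, then 10.66, 10.83 and 10.54 in the same groups, rises of 0.43 and 0.56 (SE 0.12). The low dose and its controls were close for ORC3, and that rise was lost without control replicate 1. ORC2 read 8.13, 8.21 and 8.43, then 8.98, 8.97 and 8.84, then 8.85, 8.86 and 8.60, rises of 0.67 and 0.51 (SE 0.14). With Di at 48 h ORC2 also passed upward, at 7.89, 8.31 and 8.23 against 7.90, 7.74 and 7.70 in the controls (0.36 ± 0.14, adjusted p = 0.0326). There the groups touched, and the call was lost without Di replicate 2 or 3 and without control replicate 2 or 3 (adjusted p = 0.0852 to 0.156). A second probe set of ORC2 went the opposite way: -0.45 with Di and -0.46 with high Kbr at 48 h, both called lower, so the direction of ORC2 depends on the probe set.

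Most genes of the replicative helicase fell with CdCl and Di: 10 and 11 of its 12 genes at 48 h, and 11 with CdCl at 12 h. Of all genes 22.0% and 23.9% were called lower with CdCl and Di at 48 h, and 30.5% with CdCl at 12 h. MCM7, a subunit of the helicase ring, had the largest difference of the role. It read 9.42, 9.57 and 9.46 in the 48 h controls, 8.31, 8.44 and 8.39 with CdCl and 6.48, 6.15 and 6.57 with Di. Those 3 groups were far apart: MCM7 was 2.15-fold lower with CdCl (-1.10 ± 0.17) and 8.45-fold lower with Di (-3.08 ± 0.17, limma adjusted p = 1.5e-14). The other ring subunits fell by 1.18 to 2.13 with CdCl and by 1.45 to 1.95 with Di. MCM5 was the lowest of them with CdCl, at 7.32, 7.16 and 6.88 against 9.23, 9.21 and 9.32. GINS2, a subunit of the complex that joins the ring to CDC45, fell by 1.66 with CdCl and by 2.12 with Di.

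With Kbr at 48 h MCM10, GINS3 and GINS4 rose, while GINS2 and some ring genes fell. MCM10, a scaffold that helps start the helicase, read 6.30, 6.64 and 7.42 in the 48 h controls, 8.37, 8.78 and 8.95 with the low dose and 9.44, 9.62 and 9.33 with the high dose. Each dose lay clear of the controls, and the rises were 3.77-fold (1.91 ± 0.18) and 6.38-fold (2.67 ± 0.18, limma adjusted p = 1.25e-12). At 24 h MCM10 had risen by 0.69 and 0.97, the former not without control replicate 1 (adjusted p = 0.0662). In the other set this probe set of MCM10 was under the floor of 4 in the controls, with CdCl and with Di at 48 h, so no fold is given there. Of its 2 other kept probe sets, one was called lower there with CdCl (-0.90) and Di (-0.84) and the other was not called (-0.23 and -0.12). GINS4 read 4.89, 5.94 and 6.27 in the 48 h Kbr controls, 6.03, 7.57 and 6.85 with the low dose and 7.59, 7.17 and 7.10 with the high dose. Its control arrays were spread over more than 1 log2 unit. The high dose raised GINS4 3.00-fold (1.58 ± 0.31), while the low-dose rise of 1.12 overlapped the controls and was lost without control replicate 1 (0.71, adjusted p = 0.0687) or low-dose replicate 2.

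GINS3 read 7.56, 7.998 and 7.91 in the controls, 8.21, 8.17 and 8.33 with low Kbr and 8.52, 8.52 and 8.58 with high Kbr at 48 h. It rose by 0.41 and 0.71 (SE 0.11). CDC45, the helicase partner itself, read 7.31, 7.51 and 7.96, then 8.15, 8.19 and 8.23, then 8.08, 7.97 and 7.83 in these groups. Only the low dose passed for CDC45 (0.60 ± 0.18), and not without control replicate 1 (adjusted p = 0.0638). With the replicate number as a block the high dose passed as well (0.37, adjusted p = 0.0398). With CdCl and Di at 48 h CDC45 fell by 1.09 and 1.05.

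With the high dose of Kbr 4 of the 6 ring genes fell at 48 h, where 34.5% of all genes were called lower. MCM6 read 11.61, 11.80 and 11.69 in the 48 h controls and 10.99, 10.99 and 10.71 with the high dose (-0.80 ± 0.10). MCM2, MCM5 and MCM7 fell by 0.38, 0.50 and 0.55, and MCM3 and MCM4 had differences of 0.09 and -0.24 that missed the threshold. Another probe set of MCM4 was called lower there (-0.57), while its remaining ones were not called (-0.06 and 0.08). All 6 ring genes were lower at 24 h with the high dose, by 0.34 to 0.90, where 25.3% of all genes were called lower. The MCM4 call was lost without any 1 of 5 arrays, that of MCM3 after centring and that of MCM7 without high-dose replicate 2 (adjusted p = 0.0791). The MCM7 call at 48 h was lost without control replicate 3 (adjusted p = 0.0534). The low dose at 48 h lowered MCM5 and MCM6, by 0.43 and 0.30. The MCM5 call was lost without control replicate 3 (adjusted p = 0.081) or low-dose replicate 2 (0.0596), and the MCM6 call without control replicate 2 (0.0772) or low-dose replicate 1 (0.0939). GINS2 fell by 0.49 with the low dose and by 0.39 with the high dose at 48 h. With the replicate number as a block, the low dose also lowered MCM7 (-0.26, adjusted p = 0.0421) and GINS2 (-0.32, 0.0165) at 24 h and MCM2 at 48 h (-0.18, 0.0444).

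Among the G1/S regulators, cyclin E2 (CCNE2), which activates CDK2 at the start of S phase, had the largest difference. Its levels were 7.89, 8.01 and 7.79 in the 48 h controls, 6.09, 6.34 and 6.35 with CdCl and 4.37, 5.27 and 5.11 with Di. That is 3.11-fold lower with CdCl (-1.64 ± 0.16) and 7.89-fold lower with Di (-2.98 ± 0.16, limma adjusted p = 6.19e-15). In the Kbr set CCNE2 read 8.50, 8.81 and 8.75 in the 48 h controls, 9.10, 9.19 and 9.30 with the low dose and 9.66, 9.51 and 9.34 with the high dose. Both doses lay above the controls, with rises of 0.51 and 0.82 (SE 0.16); the low-dose call was lost without control replicate 1 (adjusted p = 0.0585). Its partner gene cyclin E1 (CCNE1) was not called with CdCl at 48 h (-0.05), fell by 0.73 with Di and by 0.40 with low Kbr, and was not called with high Kbr (-0.02). The low-dose fall of CCNE1 was -0.24 without low-dose replicate 1 (adjusted p = 0.2) and was also lost without control replicate 3 (0.117).

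E2F8, a repressor of the E2F family that is itself an E2F target, read 6.20, 6.33 and 5.34 in the 48 h controls, 3.42, 3.24 and 4.25 with CdCl and 4.31, 3.82 and 3.52 with Di. Both treated means lay under the floor, so E2F8 was at least 3.88-fold lower with each. At 12 h CdCl had lowered it 5.03-fold (-2.33 ± 0.25). In the 48 h Kbr groups E2F8 read 7.23, 7.40 and 7.56 in controls and 8.17, 8.32 and 8.49 with the high dose (0.93 ± 0.25). The low dose, at 7.39, 7.75 and 7.99, overlapped the controls and was not called (0.31). DTL, the substrate receptor of the ligase that degrades CDT1, read 10.99, 10.87 and 11.04 in the controls and 11.90, 11.90 and 11.32 with high Kbr (0.74 ± 0.13). It was at 9.35, 9.38 and 9.53 in the 48 h controls of the other set, 7.90, 8.05 and 7.59 with CdCl (-1.57 ± 0.13) and 8.07, 8.21 and 7.84 with Di (-1.38 ± 0.13). By its chosen probe set E2F1, the activator of the family, passed with CdCl at 12 h only (-0.89 ± 0.29). Its SE was among the largest of the 51. A dimmer probe set of E2F1 (mean 4.13) was called lower there too (-0.84) and also with high Kbr at 24 h (-0.64). The kinase CDC7 fell by 0.95 with CdCl, 1.31 with Di and 0.68 with high Kbr at 48 h, and with the replicate number as a block also with low Kbr (-0.29, adjusted p = 0.04).

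**Figure D2:**
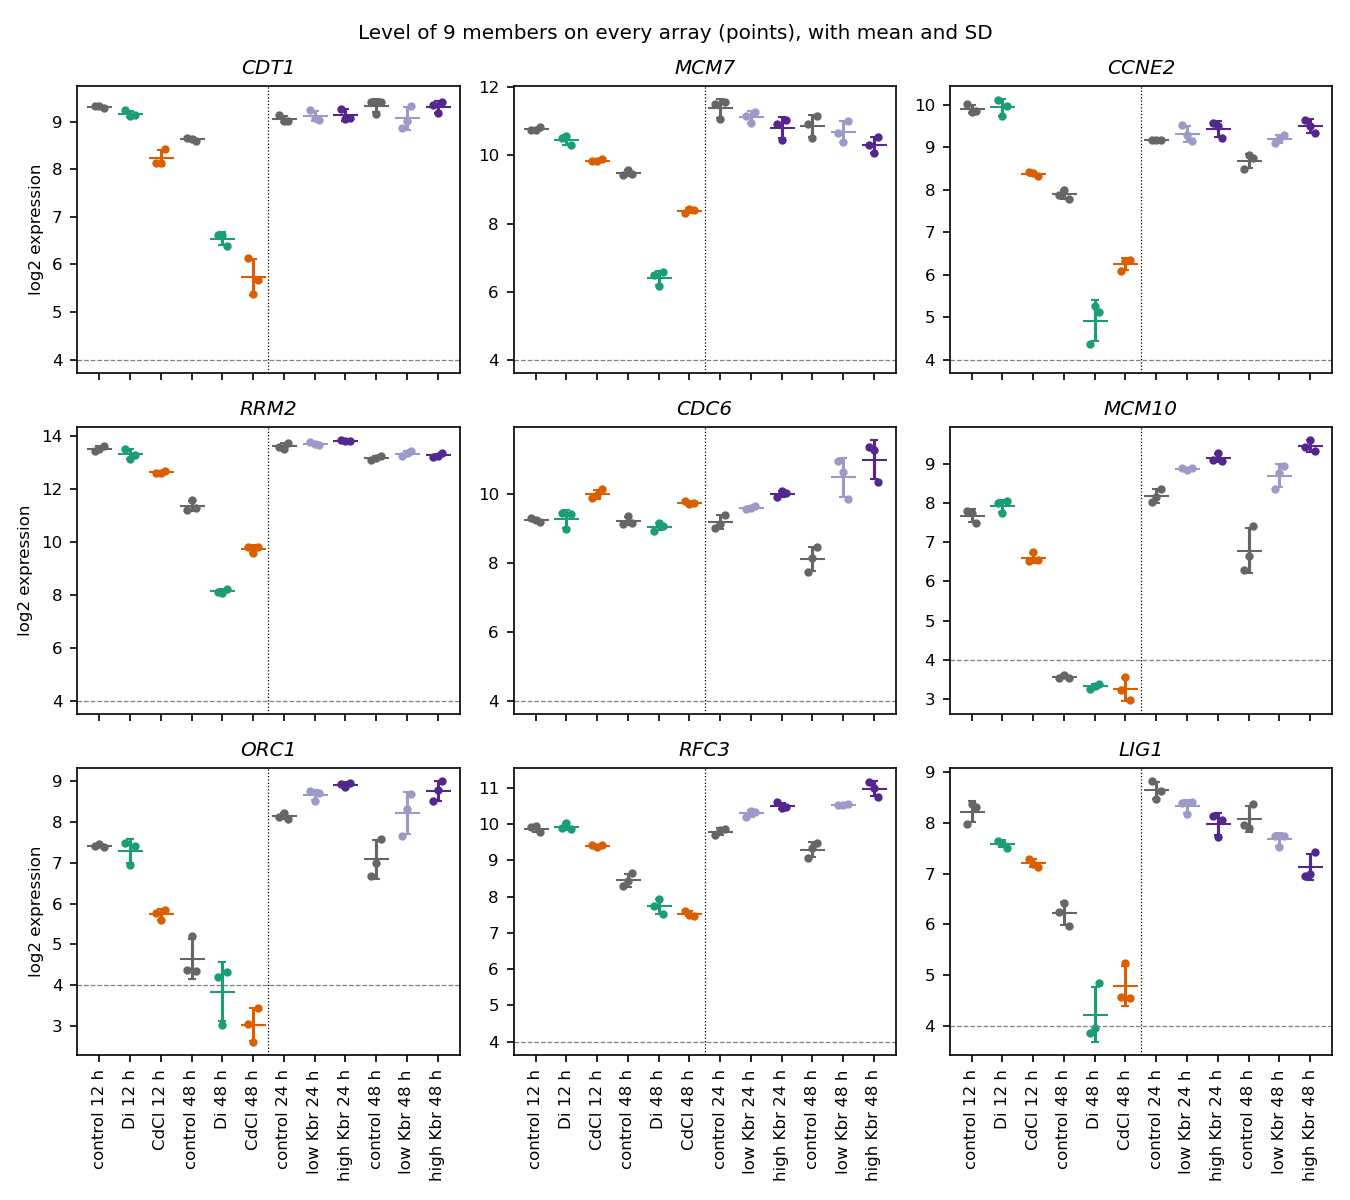
Log2 expression of 9 of the genes on each of the 36 arrays (points), with the mean and SD of each group of 3; the dotted line parts the 2 sets and the dashed line is the floor of 4. CDT1, MCM7, CCNE2 and RRM2 are low with CdCl and Di at 48 h, where MCM7 is at 6.48, 6.15 and 6.57 with Di, while CDC6, MCM10, ORC1 and RFC3 are high with Kbr at 48 h.

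No polymerase or primase gene rose in any comparison with control by its chosen probe set. Another, dimmer probe set of POLD3 (mean 4.46) was called higher with low and high Kbr at 48 h (0.44 and 0.48). It was not called with CdCl or Di, while the chosen one fell with CdCl at both times and with Di at 48 h. POLE2, the small subunit of the leading-strand polymerase epsilon, had the largest difference, at 7.72, 7.70 and 7.65 in the 48 h controls, 6.24, 6.30 and 6.22 with CdCl and 5.96, 5.60 and 5.92 with Di. It fell 2.70-fold and 3.64-fold (-1.43 and -1.86, SE 0.11) with no overlap. In the Kbr groups POLE2 was not called, with differences between -0.16 and 0.13. POLA1 and PRIM1, the catalytic subunits of the polymerase alpha and primase complex that lays down primers, fell with every compound at 48 h. POLA1 read 9.06, 9.35 and 9.13 in the 48 h Kbr controls, 8.33, 8.57 and 8.43 with the low dose and 8.12, 8.14 and 8.26 with the high dose (-0.74 and -1.01, SE 0.13). PRIM1 read 10.17, 10.25 and 10.09, then 9.98, 9.80 and 9.69, then 9.28, 9.11 and 8.71 (-0.35 and -1.14, SE 0.11), though the low-dose call was lost without low-dose replicate 3 (adjusted p = 0.053). For PRIM1 the 3 groups were in the order of dose without overlap.

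POLD1, the catalytic subunit of the lagging-strand polymerase delta, had the largest fall of the 51 with high Kbr at 48 h. It read 8.20, 7.47 and 7.96 in the controls and 6.66, 6.47 and 6.89 with the high dose (-1.21 ± 0.25, adjusted p = 0.000113). In the low-dose groups its difference was -0.56 at 24 h and -0.55 at 48 h. Neither passed, but both did with the replicate number as a block (adjusted p = 0.0267 and 0.0129). POLD1 fell by 0.64 with Di at 48 h (adjusted p = 0.0359), a call lost without Di replicate 1 or 3 or without control replicate 2 or 3 (0.0754 to 0.19). POLE, the catalytic subunit of polymerase epsilon, was one of 3 genes that fell with Di at 12 h, from 7.63, 7.65 and 7.83 to 7.00, 7.36 and 6.86 (-0.63 ± 0.16). POLA1 (-0.45) and the clamp loader subunit RFC1 (-0.31) were the others. Leaving out the third control array or the third Di array ended all 3 of these calls, and leaving out another single array left 1 or 2. With low Kbr at 48 h POLE passed with the replicate number as a block (-0.36, adjusted p = 0.0281).

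PRIM2 and POLD2, the accessory subunits of primase and polymerase delta, passed in no comparison with control. PRIM2 was at 8.20, 7.99 and 7.85 in the 12 h controls, 8.25, 8.02 and 7.74 with CdCl and 7.88, 7.19 and 8.08 with Di. At 48 h it read 7.20, 7.25 and 7.02 in controls, 7.01, 6.35 and 7.07 with CdCl and 7.24, 7.21 and 7.29 with Di. Its treated groups overlapped the controls in both sets, and with high Kbr at 48 h it was at 7.94, 7.82 and 7.84 against 7.47, 7.94 and 7.89. POLD2 read 9.88, 9.90 and 9.99 in the 48 h controls of CdCl and Di, 9.98, 9.85 and 9.81 with CdCl and 9.59, 9.71 and 9.59 with Di (-0.29 ± 0.18). With Kbr, POLD2 was at 10.60, 10.00 and 10.73 in the 48 h controls and 10.19, 9.88 and 10.57 with the high dose (-0.23). That difference passed with the replicate number as a block (adjusted p = 0.0289).

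The clamp, its loader and the lagging-strand enzymes followed the same pattern with CdCl and Di, with 9 of 11 genes lower in each at 48 h. Of all genes 22.0% and 23.9% were called lower there. LIG1, the ligase that seals Okazaki fragments, had the largest difference. It read 6.25, 6.43 and 5.98 in the 48 h controls, 4.57, 5.25 and 4.55 with CdCl and 3.86, 3.96 and 4.84 with Di, 2.69-fold and 3.996-fold lower (-1.43 and -1.998, SE 0.20). High Kbr at 48 h also lowered LIG1, to 6.96, 7.00 and 7.42 against 7.97, 7.90 and 8.37 (-0.95 ± 0.20). FEN1, the flap nuclease that acts just before LIG1, rose there instead, from 9.65, 9.80 and 9.89 to 10.53, 10.44 and 10.27 (0.63 ± 0.09). With low Kbr FEN1 read 9.89, 10.06 and 10.11, and this rise of 0.24 overlapped the controls and was lost without any 1 of 4 arrays (adjusted p = 0.0505 to 0.161). With CdCl and Di FEN1 fell by 0.44 and 1.03. PCNA, the clamp itself, fell by 1.24 with CdCl and by 0.84 with Di and was called in no Kbr comparison with control.

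RFC3, a subunit of the clamp loader, rose most of this role. It read 9.06, 9.33 and 9.48 in the 48 h Kbr controls, 10.53, 10.52 and 10.56 with the low dose and 11.17, 11.01 and 10.75 with the high dose. The 3 groups were in the order of dose without overlap, and the rises were 2.37-fold and 3.22-fold (1.24 and 1.69, SE 0.11, limma adjusted p = 6.25e-13 for the high dose). RFC3 also passed upward in both 24 h comparisons (0.50 and 0.72). It fell with CdCl at 48 h from 8.29, 8.42 and 8.65 to 7.61, 7.50 and 7.48 (-0.92 ± 0.11) and with Di to 7.75, 7.94 and 7.53 (-0.71 ± 0.11). Of the other loader subunits, RFC4 rose with low Kbr at 48 h, at 11.83, 11.77 and 11.71 against 11.33, 11.31 and 11.42 (0.42 ± 0.13), and was not called with the high dose (0.05). RFC1, RFC2 and RFC5 were not called in either 48 h comparison of Kbr with control by their chosen probe sets. With high Kbr at 48 h another probe set of RFC1 was called lower (-0.29) and another of RFC5 higher (0.29). A further probe set of RFC5 was not called there (0.18).

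RFC5 passed upward with Di at 48 h, at 10.98, 10.99 and 10.97 against 10.33, 10.44 and 10.31 in the controls (0.62 ± 0.14). Its 2 other kept probe sets both passed downward there (-0.97 and -0.69), so the direction of RFC5 depends on the probe set. RPA2 and RPA3 are the middle and small subunits of the protein that coats single-stranded DNA. RPA2 read 9.18, 9.21 and 9.34 in the 48 h Kbr controls and 9.49, 9.78 and 9.63 with the high dose (0.39 ± 0.11), while RPA3 fell there by 0.72. The low dose gave RPA2 9.33, 9.55 and 9.55, which was not called (0.23). With CdCl and Di both genes fell, RPA2 by 0.40 and 0.62 and RPA3 by 0.72 and 0.61.

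All 5 genes of nucleotide supply and uracil removal fell with CdCl at both times and with Di at 48 h, and none was called with Kbr. Of all genes 30.5% and 22.0% were called lower with CdCl at 12 h and 48 h, and 23.9% with Di at 48 h. For RRM1 the fall with CdCl at 12 h depends on the probe set. The chosen one gave -0.81 and another gave 0.0005 (limma adjusted p = 0.998). RRM2, the regulated subunit of the enzyme that makes deoxynucleotides, had the largest difference of all 51 genes. It read 11.21, 11.58 and 11.27 in the 48 h controls, 9.82, 9.57 and 9.80 with CdCl and 8.11, 8.07 and 8.21 with Di. RRM2 was 3.08-fold lower with CdCl (-1.62 ± 0.10) and 9.34-fold lower with Di (-3.22 ± 0.10, limma adjusted p = 8.64e-20). At 12 h with Di it was at 13.52, 13.13 and 13.30, which overlapped the controls at 13.42, 13.53 and 13.63. In the 48 h Kbr groups RRM2 read 13.09, 13.17 and 13.24 in controls, 13.24, 13.37 and 13.43 with the low dose and 13.22, 13.24 and 13.35 with the high dose. Thymidylate synthase (TYMS) fell by 1.25 with CdCl and 1.18 with Di, thymidine kinase (TK1) by 1.54 and 1.74, and RRM1 by 1.26 and 1.01. UNG, which cuts uracil out of DNA, fell by 1.71 with CdCl at 12 h, the second largest change of that comparison after E2F8. UNG passed downward with high Kbr at 24 h only with the replicate number as a block (-0.29, adjusted p = 0.0392).

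The effects of CdCl and Di were set against that of high Kbr at 48 h, each as a treated minus control difference within its own set. The CdCl effect was lower than the high Kbr effect for 38 genes and higher for POLD1, beside 22.3% of all genes called lower and 27.9% higher. The Di effect was lower for 40 genes and higher for RFC5, beside 19.9% and 23.6%. The RFC5 result is that of its chosen probe set, while its others fell with Di at 48 h (-0.97 and -0.69). Among genes whose group means were all above the floor, the largest gaps to CdCl were at CDT1 (-2.88 ± 0.19) and RFC3 (-2.61 ± 0.16). To Di they were at CCNE2 (-3.79 ± 0.22), RRM2 (-3.33 ± 0.14) and CDC6 (-3.04 ± 0.31). ORC1 and E2F8 were under the floor with CdCl and Di, and MCM10 also in their controls, so the sizes of their gaps are not measured, although all 3 are in the counts. At 48 h 9 genes were higher with high Kbr and lower with both CdCl and Di: ORC1, GMNN, GINS4, CCNE2, E2F8, DTL, RFC3, RPA2 and FEN1. The GINS4 fall was lost without control replicate 1 with CdCl (adjusted p = 0.0553) and without any 1 of 4 arrays with Di (0.0573 to 0.121). A further 11 were lower with all 3: MCM2, MCM5, MCM6, MCM7, GINS2, CDC7, POLA1, PRIM1, POLE, RPA3 and LIG1. How many of all genes met either of these joint rules was not counted. Each effect was taken against the controls of its own set, and CdCl and Di share theirs.

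**Figure D3:**
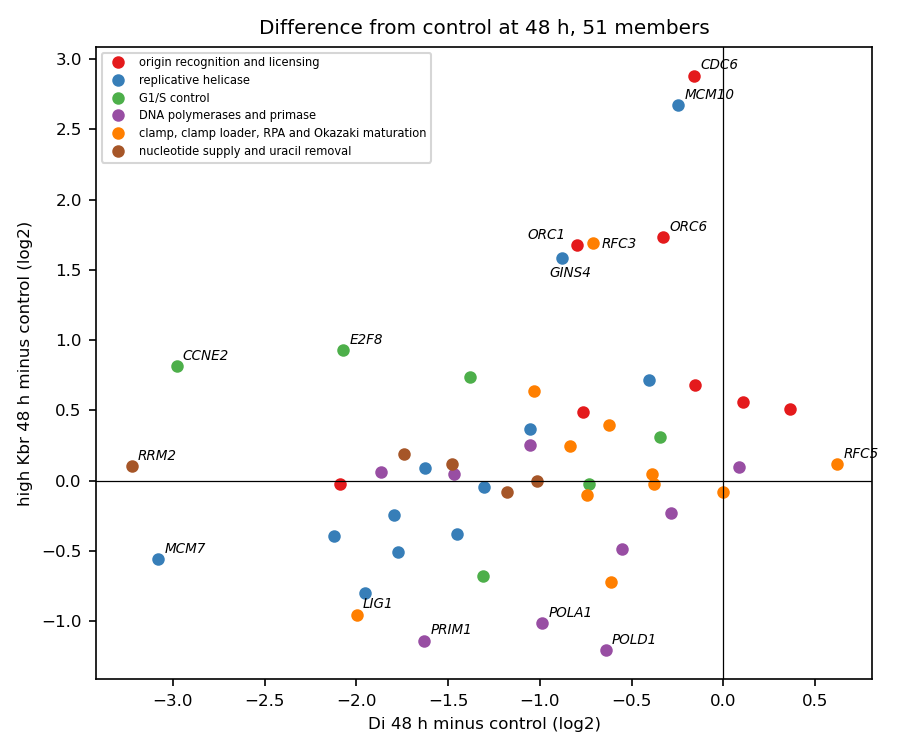
Log2 difference from control at 48 h with Di (x axis) and with high Kbr (y axis) for the 51 genes, coloured by role, with some named. Points at the upper left, such as CCNE2 (-2.98 and 0.82) and E2F8 (-2.07 and 0.93), were lower with Di and higher with Kbr, and points at the lower left, such as PRIM1 (-1.63 and -1.14), were lower with both.

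Between the times the controls themselves changed. In the vehicle groups of CdCl and Di 43 of the 51 genes were lower at 48 h than at 12 h and none higher, 36 of them by at least 2-fold, beside 27.3% of all genes called lower and 18.3% higher. The median of the 51 genes was -1.42 and that of all genes -0.07. MCM10 fell furthest, from 7.81, 7.75 and 7.49 to 3.54, 3.61 and 3.54, which is under the floor. ORC1 fell from 7.42, 7.45 and 7.38 to 4.37, 5.22 and 4.35 (-2.77 ± 0.28), and RRM2 from 13.42, 13.53 and 13.63 to 11.21, 11.58 and 11.27 (-2.18 ± 0.10). CDT1 changed less (-0.68 ± 0.13). Each fall with CdCl or Di at 48 h is therefore a fall below controls that were themselves lower than at 12 h.

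In the vehicle groups of Kbr 23 genes were lower at 48 h than at 24 h and none higher, beside 7.16% of all genes called lower and 5.08% higher, and the median was -0.37. MCM10 again fell furthest (-1.40 ± 0.18), followed by GINS4 (-1.29), CDC6 (-1.07) and ORC1 (-1.06). The count was 11 without the first 48 h control array and up to 26 without another array, so 1 array decides much of it. With high Kbr at 48 h ORC1 read 8.51, 8.77 and 8.99, against 8.12, 8.22 and 8.08 in the 24 h controls. CDC6, at 11.36, 11.27 and 10.33, was likewise above the 24 h controls, at 9.01, 9.13 and 9.39. For CCNE2 and RFC3 the high-dose arrays also lay above the 24 h controls, whereas GINS3 and FEN1 lay close to them. These are levels set side by side, without a test.

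**Figure D4:**
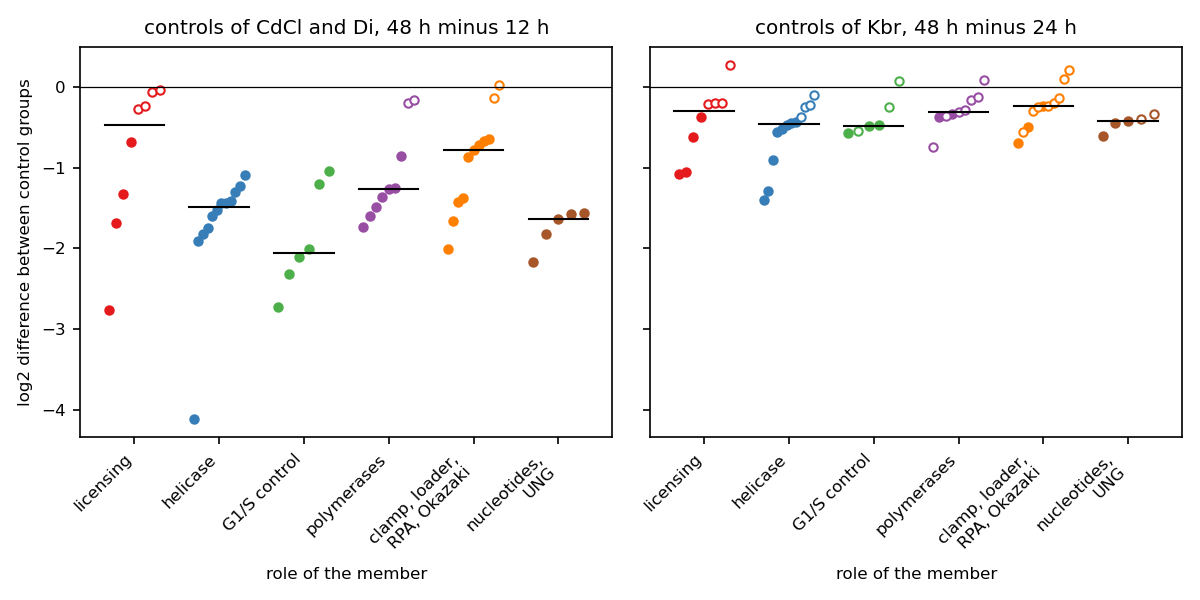
Log2 difference between vehicle groups, 48 h minus 12 h in the CdCl and Di set (left) and 48 h minus 24 h in the Kbr set (right), for the 51 genes by role; filled points passed limma's test, open points did not, and bars are medians. Nearly all points are under 0, with medians over the 51 genes of -1.42 on the left and -0.37 on the right.

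How each effect changed with time was tested as the difference of differences. For Di 34 genes were lower at 48 h than at 12 h relative to control and RFC1 was higher, beside 13.9% of all genes called lower and 15.1% higher. CCNE2 (-3.02 ± 0.22), RRM2 (-3.01 ± 0.14) and MCM7 (-2.76 ± 0.24) changed most. For CdCl, relative to control, 15 genes were lower at 48 h than at 12 h and 4 were higher (CCNE1, MCM10, GINS3 and FEN1). Of all genes 7.78% were called lower and 16.4% higher (1824 genes higher and 863 lower, or 1362 and 1038 after centring). CDT1 was the lowest (-1.82 ± 0.19) and CCNE1 the highest (1.04 ± 0.20). Most of the 51 genes fell in the controls over this time, so a value higher relative to control is not a higher level. Without the third CdCl array at 12 h the count fell from 19 to 12. The MCM10 value rests on levels under the floor at 48 h, and another of its probe sets went from -0.21 at 12 h to -0.90 at 48 h, so its direction depends on the probe set. For GINS3 the chosen probe set went from -0.58 at 12 h to -0.04 at 48 h. Its other probe set was called lower with CdCl at both times (-0.66 and -0.48).

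For high Kbr 11 genes were higher at 48 h than at 24 h relative to control and none lower, beside 6.89% of all genes called higher and 8.10% lower. They were CDC6 (2.06 ± 0.31), MCM10 (1.70 ± 0.26), GINS4, RFC3, ORC6, DTL, FEN1, RFC4, GINS3, MCM3 and GMNN. The count was 6 without the first 24 h control array. For low Kbr 4 were higher, CDC6 (1.95 ± 0.31), MCM10, RFC3 and ORC5, beside 2.54% of all genes called higher and 1.80% lower, and with the replicate number as a block 7 were higher. As the controls fell over the same time for most of these genes, a higher value relative to control is not the same as a higher level.

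The 2 doses of Kbr differed for few of the genes. At 24 h the high dose was lower than the low dose for PRIM1 (-0.48 ± 0.11) and MCM6 (-0.38 ± 0.10), beside 3.71% of all genes called lower and 0.685% higher (76 genes higher and 411 lower, or 140 and 234 after centring). With the replicate number as a block 6 genes were lower. The count of 2 was 1 without any 1 of 4 arrays. At 48 h 6 genes were higher with the high dose, MCM10 (0.76 ± 0.18), ORC6 (0.72 ± 0.21), DTL (0.48 ± 0.13), RFC3 (0.44 ± 0.11), FEN1 and GINS3. Another 4 were lower, PRIM1 (-0.79 ± 0.11), LIG1, MCM6 (-0.50 ± 0.10) and RFC4. Of all genes 6.46% were called higher and 17.3% lower there. The block gave 7 higher and 9 lower. Centring shifted the median of all genes by 0.11 in this comparison and gave 13 higher and 2 lower, and it moved all genes from 716 higher and 1922 lower to 1352 and 1297. CDC6, the gene most raised by Kbr, did not differ past the threshold between doses at either time.

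CdCl and Di differed at 12 h for 41 genes, 40 of them lower with CdCl and CDC6 higher (0.71 ± 0.22), beside 22.1% of all genes called lower and 13.6% higher. E2F8 (-2.01 ± 0.25), CCNE2 (-1.57 ± 0.16) and ORC1 (-1.55 ± 0.28) differed most. At 48 h 13 were higher with CdCl than with Di and 9 lower, beside 20.5% of all genes called higher and 17.1% lower. MCM7 (1.98 ± 0.17), RRM2 (1.60 ± 0.10) and CCNE2 (1.34 ± 0.16) were lower with Di. RFC5 (-0.91 ± 0.14), POLE (-0.82 ± 0.16) and CDT1 (-0.81 ± 0.13) were lower with CdCl. The RFC5 gap is that of its chosen probe set, which rose with Di. Its other kept probe sets fell against control with both CdCl (-1.06 and -0.91) and Di (-0.97 and -0.69). ORC1, also among the 9, was under the floor in both groups, so no difference is given.

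Regulators of the same step that are not among the 51 were read from a list of 30, of which 28 were measured. CDKN1A, the p21 inhibitor of cyclin-dependent kinases, rose in all 8 comparisons with control. It was at 9.85, 9.88 and 9.92 in the 48 h controls, 11.15, 10.998 and 11.02 with CdCl and 11.65, 11.80 and 11.71 with Di (1.17 and 1.84, SE 0.10). In the Kbr set it read 9.26, 8.70 and 9.11 in the 48 h controls and 10.50, 10.53 and 10.56 with the high dose (1.51 ± 0.10). With Di at 12 h CDKN1A rose by 0.52 and with low Kbr at 24 h by 0.63 (SE 0.10 each). Its part in the levels of the 51 genes was not tested. Of the list 7 genes rose and 9 fell with CdCl at 48 h, 7 and 7 with Di, and 6 and 9 with high Kbr. These shares of the 28 lay near those of all genes, which were 20.7% higher and 22.0% lower with CdCl, 19.1% and 23.9% with Di and 27.3% and 34.5% with high Kbr. CDKN2B, the p15 inhibitor, rose by 1.78, 2.63 and 0.65 in these, and SKP2, which directs the destruction of the p27 inhibitor, fell by 1.39, 1.52 and 1.10. Cyclin D1 (CCND1) rose with CdCl (1.70) and Di (1.48), and cyclin D2 (CCND2) fell with high Kbr (-2.68).

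Cyclin A2 (CCNA2), which acts once S phase has begun, fell by 1.17 with CdCl and 1.17 with Di at 48 h and rose by 0.52 to 0.78 in the 4 Kbr comparisons. The phosphatase CDC25A rose with high Kbr at 48 h (1.79) and fell with CdCl at 12 h (-1.61), and in the 48 h controls of that set it was under the floor. A second list held 40 genes of fork protection, the S phase checkpoint, chromatin assembly and nucleotide supply, of which 37 were measured. At 48 h 2 of these rose and 29 fell with CdCl, 1 rose and 27 fell with Di, and 18 rose and 7 fell with high Kbr, against the same shares of all genes. The histone chaperone ASF1B (-2.03 and -2.69), the helicase HELLS (-1.97 and -2.30) and UHRF1 (-1.24 and -2.35) were among the lowest with CdCl and Di, while topoisomerase TOP1 rose (1.15 and 1.38). With high Kbr the nuclease EXO1 (1.89), TOP1 (1.19) and DBF4, the activator of CDC7, (1.16) rose most, and the polymerase delta subunit POLD4 fell most (-2.26). The checkpoint kinase CHEK1 fell by 1.07 with CdCl and 1.32 with Di and rose by 0.83 with high Kbr.

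For 24 of the 51 genes 28 further probe sets had been kept. Where the chosen probe set was called lower or higher with CdCl at 48 h, 18 times over these pairs, 17 of the others were called in the same direction and none in the opposite one. With Di at 48 h that held for 18 of 22, with 3 opposite, and with high Kbr at 48 h for 12 of 13, with 1 opposite. Fewer of the others were called alike with CdCl at 12 h (16 of 23, with 19 of the same sign), high Kbr at 24 h (9 of 12) and low Kbr (2 of 5 at 24 h and 6 of 11 at 48 h), with none called opposite. All of the opposite calls were at ORC2 and RFC5.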

How the data were processed

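Per the labels' protocols, biotinylated cRNA made from total HK-2 RNA was put on single-colour Affymetrix arrays. The authors deposited log2 values, 1 per probe set, from GCRMA per the submitters' processing notes, with the GCRMA version not given in the sources used here. Background in such values compresses the differences of dim genes, and normalization partly removes a shift that most genes share.

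Of 54675 probe sets 23599 lay above 4 on 3 or more arrays, and those with 1 platform gene symbol, the brightest per gene, gave 11092 genes. One limma model (version 3.58.1, R 4.3.3, lmFit and eBayes) held all 36 arrays as 12 group means, with Benjamini-Hochberg adjustment over all genes and a threshold of 0.05, for 20 comparisons. SEs are those of the model. Where the lower group averaged under 4, the fold is a lower bound, the higher mean over 4. The fit was tested on simulated data with known changes.

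The members, the 2 lists of neighbouring genes and the markers were chosen with earlier results of these data known. Array values are printed for the member with the largest difference of each role, for members that passed upward at 48 h and for those that never passed, on the arrays of the comparisons concerned. From the 2 lists, CDKN1A, CCND1, CCNA2, CDC25A, CHEK1 and the largest passing genes are named.

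Replicates carry the numbers 1 to 3 in the labels. Deviations from the group means correlated between same-numbered Kbr arrays in 45 of 45 pairs (r = 0.218 to 0.701), and 18 of 18 such arrays lay closest to their own number, so the numbers were taken to pair them. In the CdCl and Di set 8 of 45 pairs were over 0.1, and they were not. The main fit held no block for either set, and blocked values stand beside the Kbr results they move.

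Promoter windows came from RefSeq on GRCh38.p14, matched by symbol.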

Additional observations from a re-analysis of the deposited data

Results flagged for a closer look

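The differences listed here stood out because the CdCl or Di effect and the high Kbr effect at 48 h were called in opposite directions. The difference itself also passed limma's test in each (3 arrays a group). Against the high Kbr effect, the CdCl effect was lower at ORC1 (-3.28), E2F8 (-3.25), RFC3 (-2.61), GINS4 (-2.55), CCNE2 (-2.45), ORC6 (-2.31), DTL (-2.31), GMNN (-1.27), FEN1 (-1.07) and RPA2 (-0.79). The Di effect was lower at CCNE2 (-3.79), E2F8 (-3.002), ORC1 (-2.47), GINS4 (-2.46), RFC3 (-2.40), DTL (-2.12), FEN1 (-1.67), GMNN (-1.26), GINS3 (-1.12) and RPA2 (-1.02). The CdCl and Di values rest on the same control arrays. For ORC1 and E2F8 the CdCl and Di means at 48 h were under the floor of 4, so these differences are compressed, and the ORC6 and GINS4 falls with CdCl and the ORC1, GINS3 and GINS4 falls with Di did not hold without some single arrays. Groups of 3 arrays were too small for a test of single outlying arrays.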

How the results depend on the processing

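All counts here are of the 51 genes called by limma. For CdCl at both times, Di at 48 h, high Kbr at both times, the vehicle groups of CdCl and Di, CdCl against Di and the effects against high Kbr, every setting run kept the count within 1.5 times. Di at 12 h, with 3 called, had 1 after quantile normalization, 0 after centring (10 at an unadjusted p under 0.05), 16 with array weights, 5 with its set alone and 0 with the compared groups alone (14 unadjusted). Low Kbr at 24 h, with 7, had 4 with its set alone and 3 with the compared groups alone, and at 48 h, with 22, it had 13 with the compared groups alone. The doses at 24 h, with 2, had 1 after centring or with the mean of probe sets, 4 with array weights, and 0 with the set or the compared groups alone (11 and 16 unadjusted). At 48 h, with 10, they had 16 with array weights and 1 with the compared groups alone. The change of the low Kbr effect, with 4, had 0 with the set or the compared groups alone (12 unadjusted each), and that of the high Kbr effect, with 11, had 7 and 5. The Kbr vehicle groups, with 23, had 15 with array weights and 0 with the compared groups alone (32 unadjusted). Fits on fewer arrays estimate the spread from fewer samples; other causes were not tested.

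With the replicate block, 7 genes were called with Di at 12 h, in a set whose numbers do not pair the arrays. In the Kbr set, where they do, the block gave 6 and 16 for the doses at 24 h and 48 h and 7 for the change of the low Kbr effect, and kept the other Kbr counts within 1.5 times.

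Leaving out one array at a time gave 0 to 2 for Di at 12 h, 4 to 7 for low Kbr at 24 h, 1 to 2 for the doses at 24 h, 12 to 18 for the change of the CdCl effect, 6 to 11 for that of high Kbr and 11 to 26 for the Kbr vehicle groups. With a gene's probe sets averaged, the Di difference at 48 h turned to -0.041 for ORC2 and to -0.35 for RFC5 (adjusted p = 0.00446). With 3 arrays a group, small differences and genes near the floor of 4 are the least certain.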
